A study of Mus musculus with 6 samples.

Results

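The fibroblast growth factor (FGF) genes of the uterus were taken from the deposited table by symbol: FGF ligands and FGF homologous factors, receptors, FGF-binding proteins, FRS adaptors, Sprouty and Spred inhibitors, Dusp6 and the ETV factors Etv1, Etv4 and Etv5. The rule found 42 of 23420 genes, and 28 of the 42 averaged 10 counts or more across the genotypes, the count minimum used throughout. Uterine RNA of Foxo1f/f mice was compared with that of Foxo1d/d mice, which carry PgrCre/+ with Foxo1f/f, to ask which transcripts differ when FOXO1 is lost. Females were C57BL/6J, aged 8 weeks and fed a diet that the labels call standard chow and the methods describe as free of soy protein, and had been mated with vasectomized males, so that the uteri were taken at day 4.5 of pseudopregnancy with no embryo present. Each genotype had 3 libraries, and each library was a pool of RNA from 2 mice. Both genotypes carry the floxed allele, and Cre is found only in Foxo1d/d. Because Cre is driven from the Pgr locus, deletion is not limited to one uterine cell type and also reaches organs outside the uterus that express PGR, the ovary and pituitary among them, while cells without PGR, such as those of blood vessels, keep FOXO1.

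The table gave the authors' mean of the raw counts in each genotype, so each genotype had 1 value per gene. Pairs of mean counts are given with Foxo1f/f first and Foxo1d/d after it. The spread between pools is not in these means, no difference below has a replicate check, and no p-value was computed. The counts summed to 78375043 in Foxo1f/f and 81773890 in Foxo1d/d. Means were scaled to these totals before the ratio of Foxo1d/d to Foxo1f/f was formed, on a log2 scale. The 95% intervals are exact Clopper-Pearson intervals from the summed counts. They hold for a gene's share of the total count and cover counting error only, with no spread between pools and no account of PCR copies left after duplicates were removed.

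For Foxo1 the authors' mean was 3941 counts in Foxo1f/f against 1456 in Foxo1d/d. This was 2.82-fold lower in Foxo1d/d (log2 ratio -1.50, 95% counting interval -1.55 to -1.45). The count covers the whole gene, and transcripts outside the deleted exon can remain in it. Markers of the labelled tissue were present in both genotypes. The stromal collagen gene Col1a1 had mean counts of 71556 and 80694 in Foxo1f/f and Foxo1d/d, the smooth muscle gene Myh11 had 60677 and 46984, and the epithelial gene Cdh1 had 4438 and 4981.

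FGF ligands bind receptor tyrosine kinases together with heparan sulfate, and the FRS adaptors pass the signal to RAS and ERK. Sprouty, Spred and DUSP6 proteins restrain that relay, and ETV factors are transcribed in response to it. In the uterus, progesterone acts through stromal HAND2 to hold down stromal FGFs that otherwise drive epithelial proliferation through epithelial receptors.

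Of the 28 FGF genes at the count minimum, 2 were at least 1.5-fold higher in Foxo1d/d, against 5.57% of all 15696 genes at that minimum, and 1 was at least 1.5-fold lower, against 3.63%. The higher genes were Fgf18 and Fgf14, and the lower gene was Fgf9. Fgf14 reached the count minimum only through Foxo1d/d, where it was higher, so its place in this count supports nothing. These shares are near the background, and nothing particular to the list is read from them. The median log2 ratio was 0.00 over the 28 genes and 0.02 over all 15696. Outside Fgf9, Fgf14 and Fgf18, every one of the 25 FGF genes lay within 1.39-fold. The counting interval lay wholly inside 1.5-fold for 20 of the 28 genes and wholly beyond it for 2, Fgf9 and Fgf18.

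**Figure D1:**
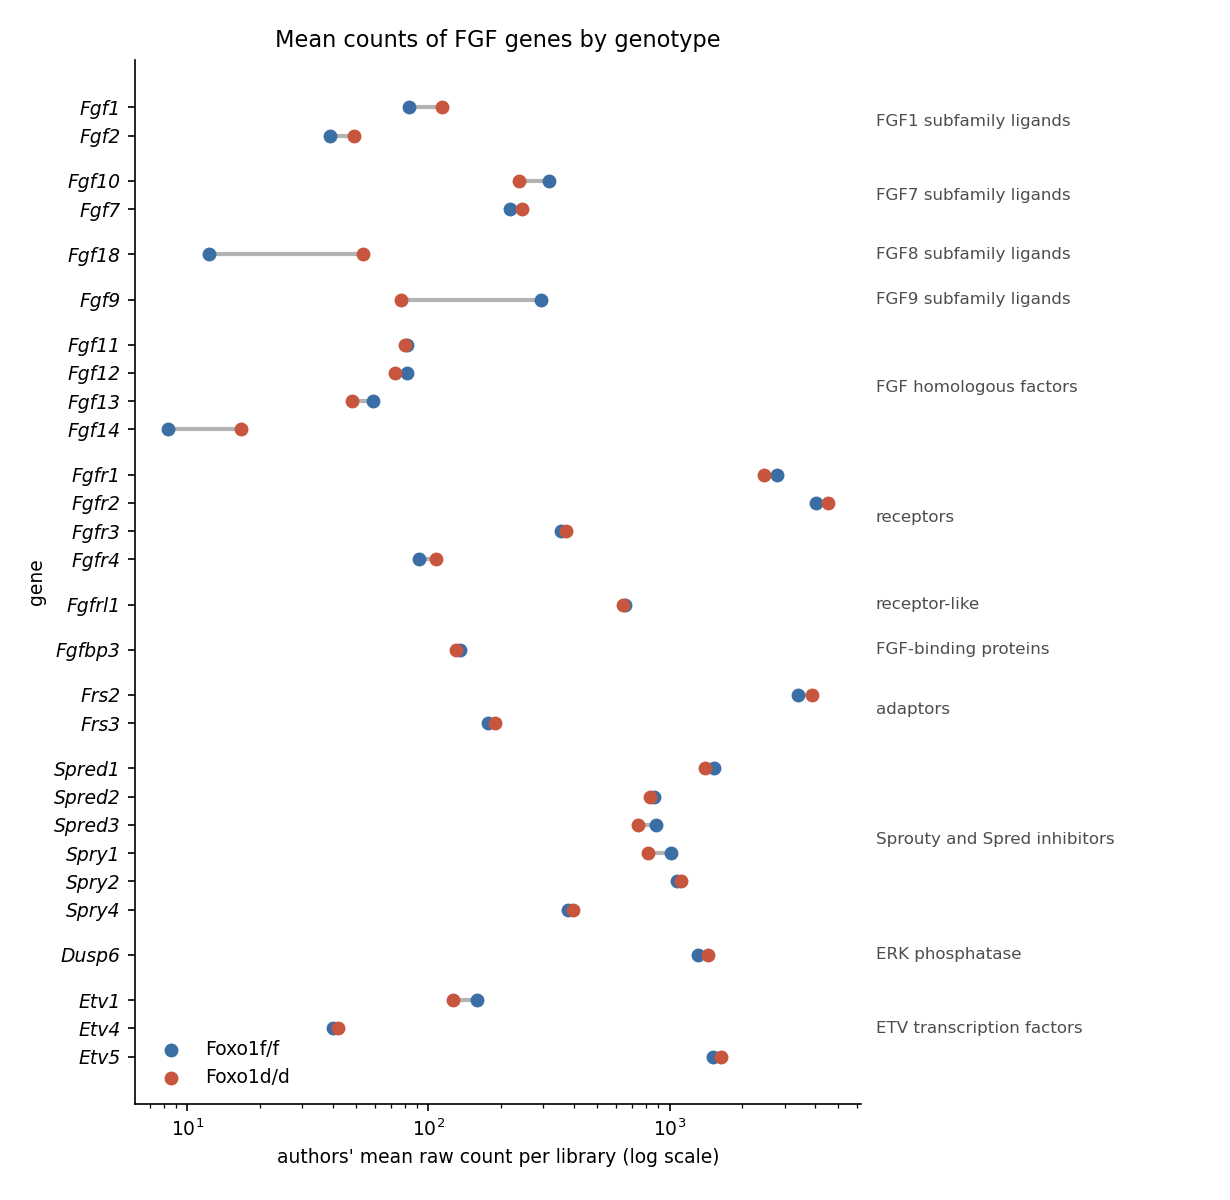
The authors' mean raw counts (log scale) of the 28 FGF genes at the count minimum, in Foxo1f/f (blue) and Foxo1d/d (red), grouped by role. Fgf9 and Fgf18 show the widest gaps, 293 to 77 and 12.3 to 53.7.

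Fgf9 encodes a secreted ligand that signals between epithelium and mesenchyme in many organs. It averaged 293 counts in Foxo1f/f against 77 in Foxo1d/d. This was 3.97-fold lower in Foxo1d/d (log2 ratio -1.99, 95% counting interval -2.21 to -1.78). Only 64 of the 15696 genes had a lower ratio. Its subfamily members Fgf16 and Fgf20 were below the count minimum, with mean counts of 4 and 7 for Fgf16 and 1.67 and 0 for Fgf20.

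Fgf18, a secreted ligand of the FGF8 subfamily known for its part in skeletal and lung growth, differed in the other direction. It averaged 12.3 counts in Foxo1f/f against 53.7 in Foxo1d/d. This was 4.17-fold higher (log2 ratio 2.06, 95% counting interval 1.54 to 2.62), and 51 genes had a higher ratio. At these depths large ratios are common: 27.4% of genes averaging 10 to under 100 counts were at least 1.5-fold apart, against 5.34% of those averaging 100 or more. Fgf18 belongs to the first class and Fgf9 to the second. Fgf17 of the same subfamily had mean counts of 10.3 and 7.33, below the minimum over both genotypes.

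The sequences before the start sites of Fgf9 and Fgf18 are shown because these were the secreted ligands past 1.5-fold, and that of Fgf10 because it held a FOXO core motif. All 3 were chosen after their values were seen. They are the 250 bases before a transcript start in the RefSeq promoter set on GRCm38.p6, 5' to 3' on the gene's strand, at chr14:58072436-58072685 (+) for Fgf9, chr11:33147401-33147650 (-) for Fgf18 and chr13:118714449-118714698 (+) for Fgf10. The Fgf18 and Fgf10 windows end at the edge of the RefSeq gene. The Fgf9 window lies inside the RefSeq span of that gene, chr14:58070671-58112854, and so precedes an internal start. None of the windows holds an exon of the GENCODE basic annotation. Capitals mark the FOXO core TGTTTAC.
Fgf9: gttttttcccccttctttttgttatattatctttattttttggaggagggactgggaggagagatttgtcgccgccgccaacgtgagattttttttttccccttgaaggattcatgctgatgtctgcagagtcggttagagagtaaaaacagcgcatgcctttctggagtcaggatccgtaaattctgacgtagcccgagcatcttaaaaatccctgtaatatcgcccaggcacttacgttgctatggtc
Fgf18: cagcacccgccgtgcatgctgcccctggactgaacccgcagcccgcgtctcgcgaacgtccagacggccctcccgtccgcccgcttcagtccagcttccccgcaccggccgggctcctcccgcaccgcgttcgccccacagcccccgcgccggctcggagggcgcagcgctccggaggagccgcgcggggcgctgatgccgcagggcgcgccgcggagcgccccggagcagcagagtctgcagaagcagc
Fgf10: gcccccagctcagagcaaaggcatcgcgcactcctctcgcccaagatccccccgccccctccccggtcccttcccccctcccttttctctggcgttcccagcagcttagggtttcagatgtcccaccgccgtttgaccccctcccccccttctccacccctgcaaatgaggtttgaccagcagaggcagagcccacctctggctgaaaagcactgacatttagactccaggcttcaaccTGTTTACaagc

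The FOXO core TGTTTAC and the progesterone response half-site TGTTCT were searched on both strands, and neither run of letters contains the other. The core was in 3.17% of all 32851 promoter windows of this length, and the half-site was in 16.1%. Promoters were matched for 32 of the 42 FGF genes, with 41 windows. The core was in 2 of these windows, of Etv5 and Fgf10, and the half-site in 2, of Fgf13 and Fgfbp1. The Fgf9 and Fgf18 windows held neither run of letters. Base composition differed between them: 44.8% of the Fgf9 bases and 77.2% of the Fgf18 bases were G or C, against a median of 52.4% over all windows. The Fgf18 window held 37 CpG dinucleotides and the Fgf9 window 11, against a median of 6 over all windows. A match describes the letters only.

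The FGF7 subfamily ligands, which stroma secretes and the epithelial form of FGFR2 binds, differed less. Fgf10 averaged 315 counts in Foxo1f/f against 237 in Foxo1d/d (log2 ratio -0.47). Fgf7 had 218 and 245 (log2 ratio 0.11). Fgf1 and Fgf2, ligands that lack a classical signal peptide, both lay within 1.5-fold. The mean counts of Fgf1 were 83 and 114, with a log2 ratio of 0.40. Those of Fgf2 were 39 and 49.3, with a log2 ratio of 0.28 and a counting interval of -0.08 to 0.64 that includes 0. Counting intervals of Fgf7, Fgf11, Fgf12, Fgfr3, Fgfr4, Fgfrl1, Fgfbp3, Frs3, Spry2, Spry4, Etv4 and Etv5 also include 0. Some FGF genes share exon bases with another annotated gene, and reads there may not be told apart. Fgf2 shares 640 with Nudt6 on the opposite strand, Fgfr2 shares 314 with Ctbp2 on the same strand, and 24.4% of the exon bases of Spry1 are shared with an unnamed transcript. Overlaps with antisense or unnamed transcripts also touch Fgf10, Fgf14, Fgfr1, Fgfr3 and Frs3.

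Levels were compared between ligands per length, as counts per kilobase of exon per 1000000 counts. In Foxo1f/f, Fgf10 stood at 2.93, Fgf7 at 2.66 and Fgf9 at 2.50, followed by Fgf1 at 0.613 and Fgf18 at 0.398. In Foxo1d/d the order was Fgf7 at 2.86, Fgf10 at 2.11, Fgf18 at 1.66, Fgf1 at 0.807 and Fgf9 at 0.629. Fgf9 thus made up 25.6% of the summed level of the 18 secreted ligands in Foxo1f/f and 7.15% in Foxo1d/d, while the share of Fgf18 was 4.07% and 18.9%. The sum itself was 9.77 and 8.80.

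**Figure D2:**
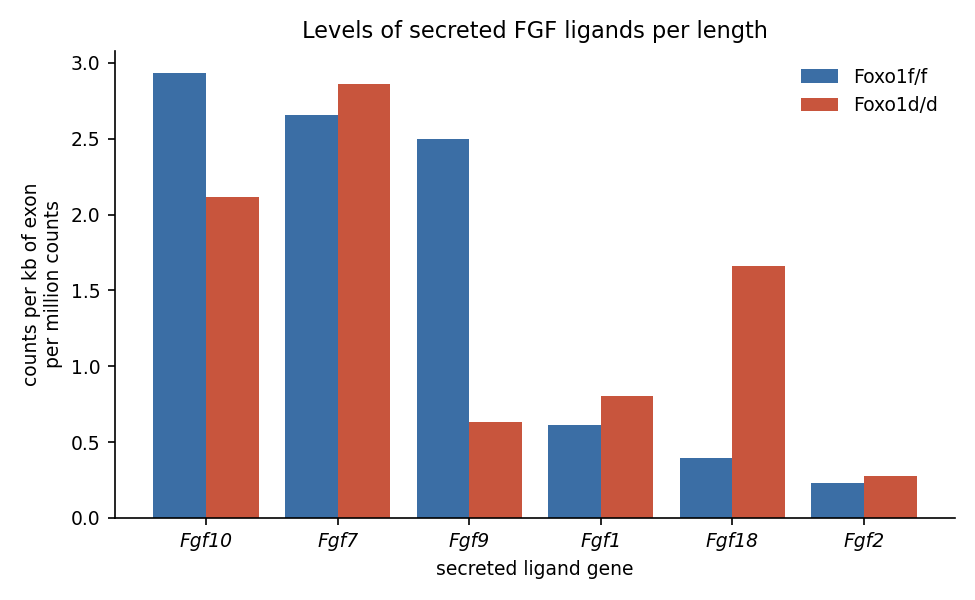
Level per length (counts per kilobase of exon per 1000000 counts) of the 6 secreted ligands at the count minimum, in Foxo1f/f (blue) and Foxo1d/d (red). Fgf9 stands at 2.50 and 0.629, and Fgf18 at 0.398 and 1.66; bars are single means with no error.

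The other secreted ligands were at or near 0. Fgf22 had mean counts of 2.33 and 4.67, and Fgf5, Fgf6, Fgf8, Fgf15, Fgf21 and Fgf23 had 1 or less in each genotype. Fgf3 and Fgf4 had no count. Summed over a genotype, a count of 0 allows up to 3 counts.

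The FGF homologous factors stay inside the cell and bind sodium channels in place of receptors. Fgf14 had mean counts of 8.33 and 16.7. This was 1.92-fold higher in Foxo1d/d (log2 ratio 0.94, 95% counting interval 0.22 to 1.69), and the interval reaches below 1.5-fold. Fgf11 had 81.7 and 79.7 (log2 ratio -0.10) and Fgf12 had 81.7 and 73 (-0.22). Fgf13 had 59 and 48.3 (-0.35).

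All 4 receptor genes lay within 1.5-fold. Fgfr2, whose epithelial form binds FGF7 and FGF10, averaged 4046 and 4544 counts (log2 ratio 0.11). Fgfr1, the receptor with the next most counts, averaged 2784 and 2468 (log2 ratio -0.23). Per length, Fgfr2 stood 1.48 times as high as Fgfr1 in Foxo1f/f and 1.88 times in Foxo1d/d, with the exon bases that Fgfr2 shares with Ctbp2 counted in its length. Fgfr3 had mean counts of 353 and 371 and Fgfr4 had 91.3 and 107, with log2 ratios of 0.01 and 0.17. The direction of Fgfr3 flips when ratios are scaled by the median gene or by a trimmed mean. Fgfrl1, which binds FGFs but lacks the kinase domain, had 651 and 639 (log2 ratio -0.09). The binding protein gene Fgfbp3, whose product releases FGFs from the matrix, had 135 and 131 (-0.10), and Fgfbp1 had 1 and 0.333.

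The adaptor gene Frs2 averaged 3425 and 3893 counts (log2 ratio 0.12), and Frs3 had 176 and 189 (log2 ratio 0.04). Among the Sprouty genes, whose products inhibit RAS to ERK signaling, Spry1 averaged 1016 and 811 (log2 ratio -0.39). Spry2 had 1069 and 1113 and Spry4 had 379 and 398, with log2 ratios of 0.00 and 0.01; the sign of Spry4 also depends on the scaling. Spry3 had no count. The Spred genes encode related inhibitors of RAF activation. Their mean counts were 1531 and 1408 for Spred1, 862 and 826 for Spred2, and 880 and 741 for Spred3, with log2 ratios of -0.18, -0.12 and -0.31.

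Dusp6, an ERK phosphatase gene that ERK activity itself induces, averaged 1314 and 1441 counts (log2 ratio 0.07). Etv5 averaged 1520 and 1629 (log2 ratio 0.04), and Etv4 had 40 and 42 (log2 ratio 0.01), a ratio whose sign depends on the scaling. Etv1 averaged 158 and 126 (log2 ratio -0.39). Over the 10 inhibitor, phosphatase and ETV genes at the count minimum, none was past 1.5-fold and the median log2 ratio was -0.06. With 5.57% of all genes higher and 3.63% lower, a count of 0 among so few genes is near the background. At a looser threshold, a log2 ratio of 0.32 in size, 3 of the 28 FGF genes were higher, against 12.7% of all genes, and 5 were lower, against 9.07%. The higher genes were Fgf1, Fgf18 and Fgf14, of which Fgf14 reached the count minimum only through Foxo1d/d. The lower genes were Fgf9, Fgf10, Fgf13, Spry1 and Etv1. At 2-fold, Fgf18 was higher, against 2.1%, and Fgf9 lower, against 1.46%.

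**Figure D3:**
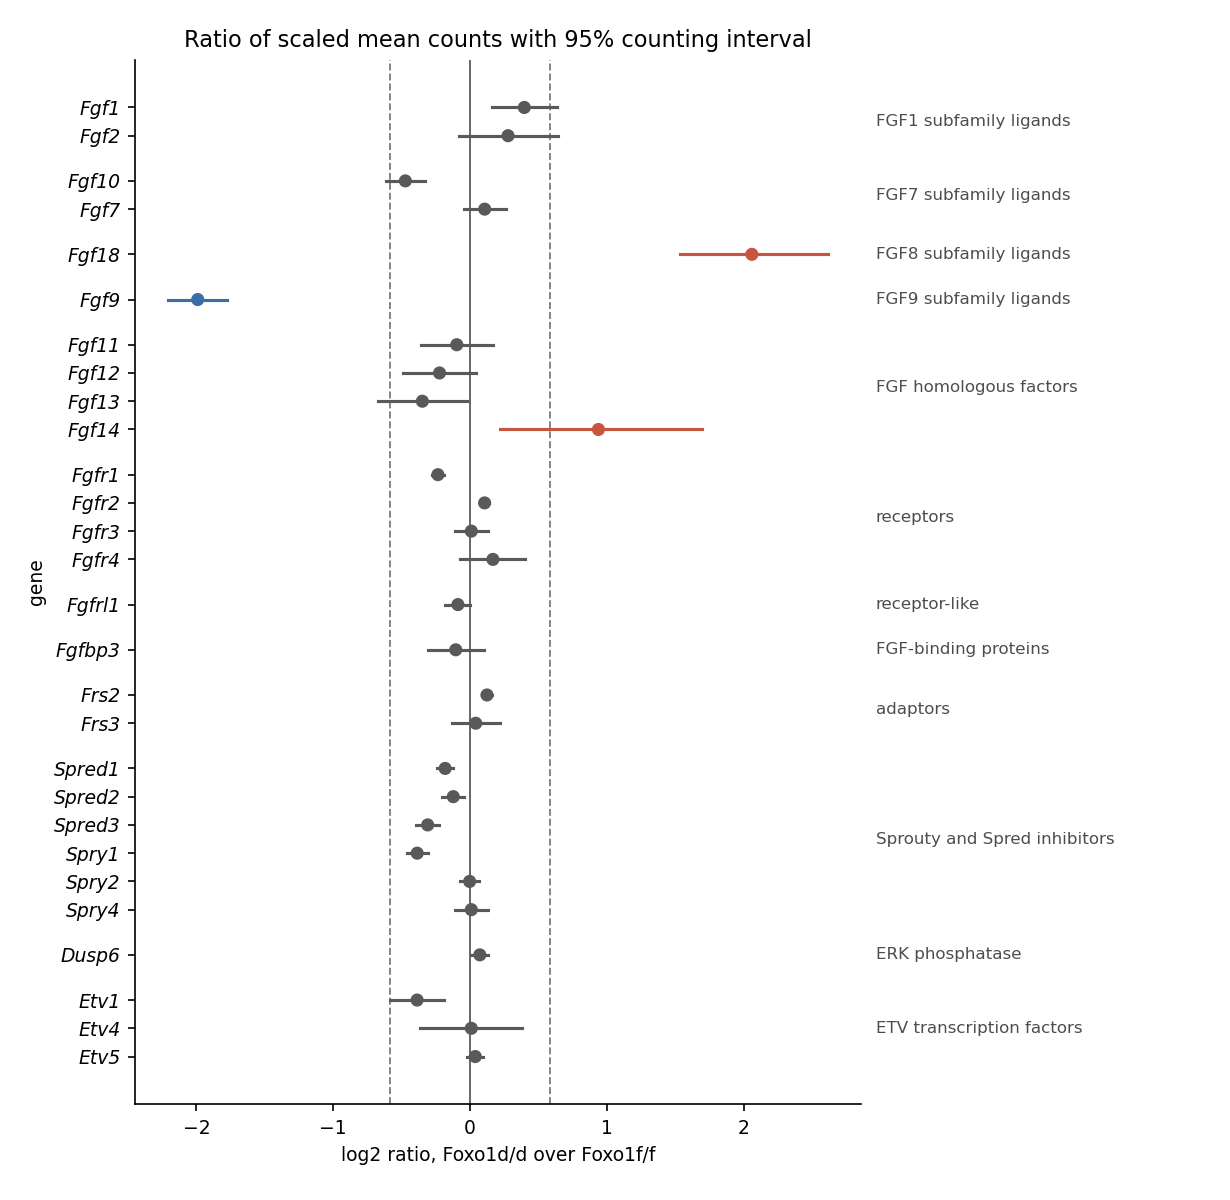
Log2 ratio of scaled mean counts, Foxo1d/d over Foxo1f/f, for the 28 FGF genes with 95% counting intervals. Dashed lines mark 1.5-fold; Fgf18 (2.06) and Fgf9 (-1.99) lie beyond them with their whole interval.

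**Figure D4:**
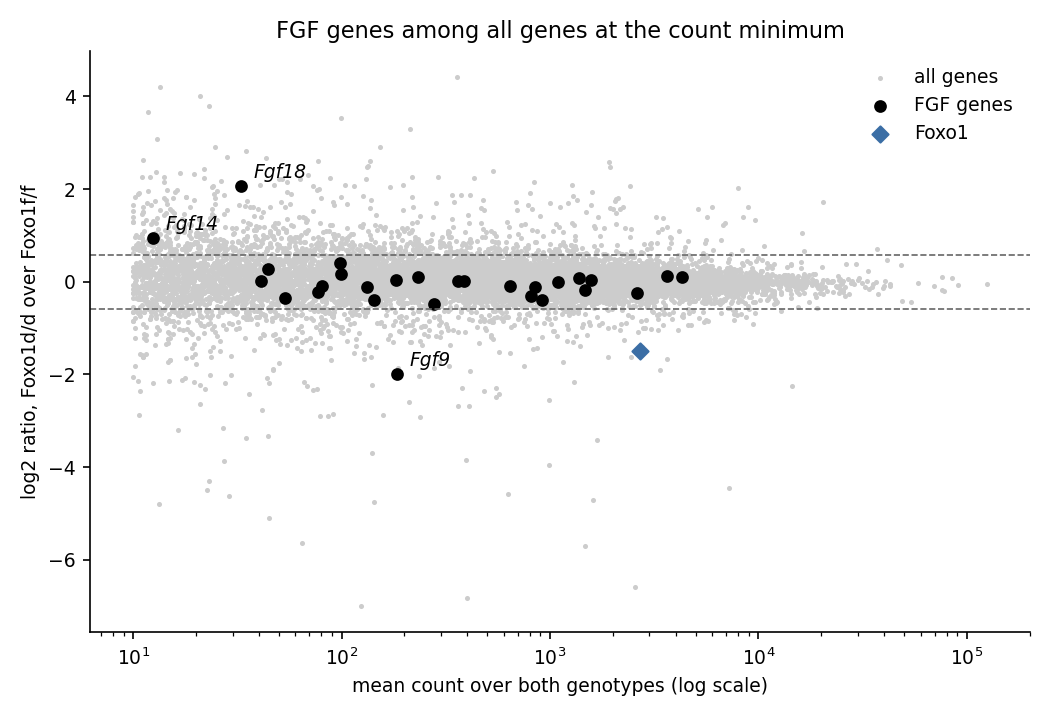
Log2 ratio against the mean count over both genotypes (log scale) for the 15696 genes at the count minimum (grey), with the FGF genes in black and Foxo1 as a diamond. Dashed lines mark 1.5-fold, and the FGF genes past them are Fgf18, Fgf14 and Fgf9.

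Hand2, Pgr and Esr1 lay within 1.5-fold. Hand2 averaged 2968 and 2975 counts (log2 ratio -0.06). Pgr had 5469 and 6551 (log2 ratio 0.20) and Esr1 had 5694 and 6177 (0.06). Foxo1d/d alone carries Cre at the Pgr locus, and any part of that allele in the Pgr ratio was not tested.

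In 5 lists of other pathway genes, 72 genes were at the count minimum, of which 1 was at least 1.5-fold higher, against 5.57% of all genes, and 1 lower, against 3.63%. Of 12 heparan sulfate proteoglycan and klotho genes, none was past the threshold. Hspg2, which encodes perlecan, had 20751 and 19609 (log2 ratio -0.14), and Agrn had 8638 and 8091 (-0.16). Of 17 heparan sulfate enzyme genes, the 6-O-sulfotransferase gene Hs6st3 was lower at 17.3 against 10.3 counts (log2 ratio -0.81, 95% counting interval -1.50 to -0.14). Extl3 had 5710 and 4883 (-0.29), and Sulf1, an enzyme that trims sulfate from the chains, had 4649 and 3972 (-0.29).

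None of the 18 RAS to ERK relay genes was past 1.5-fold. Shc1, which encodes an adaptor of receptor tyrosine kinases, had mean counts of 7424 and 6804 (log2 ratio -0.19). Of 14 other feedback genes and modulators, the phosphatase gene Dusp9 was higher at 9.33 against 18 counts (log2 ratio 0.89, 95% counting interval 0.20 to 1.60). It too reached the count minimum only through Foxo1d/d. Il17rd, an FGF signaling inhibitor, had 1947 and 1653 (-0.30), and Flrt2 had 1397 and 1693 (0.22). None of 11 ERK-responsive transcripts was past the threshold. Ets2 had 4891 and 4539 (-0.17), and Ets1 had 3910 and 4188 (0.04).

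Markers of some cell types differed between the same libraries as Fgf9 and Fgf18. Of 6 adipocyte markers, 5 were at least 1.5-fold higher in Foxo1d/d, against 5.57% of all genes, and none was at 0. Cidec had 30 and 147 (log2 ratio 2.23), Plin1 19.3 and 90 (2.16), Adipoq 53.7 and 201 (1.84), Lep 7.67 and 28.3 (1.82) and Fabp4 156 and 534 (1.71). Lep reached the count minimum only through Foxo1d/d, where it was higher. Plin4, the most abundant, had 651 and 674 (-0.01), and the list summed to 917 and 1674. Of 4 gland markers, 2 were lower, against 3.63% of all genes, and 1 was higher, against 5.57%. The lower ones were Prss29 with 13746 and 652 (-4.46) and Spink3 with 3104 and 124 (-4.71). Aldh1a1 was higher, with 344 and 544 (0.60), but fell under 1.5-fold with the ratios scaled by the median gene or by a trimmed mean. Foxa2 had 280 and 300 (0.04). The gland list summed to 17474 and 1620. The part of these markers in the ratios of Fgf9 and Fgf18 was not tested, and in bulk tissue fewer cells and less RNA per cell cannot be told apart. For glands, the paper reports no difference in number between the genotypes on an earlier day of pregnancy. Glands were not counted in the uteri sequenced here.

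Of 6 epithelial markers, Krt19 was higher, with 757 and 1842 (log2 ratio 1.22), and Cldn3 had 3405 and 4712 (0.41). The median of the list was 0.26. Of 6 leukocyte markers, Cd3e was higher, with 52 and 116 (1.10), while Ptprc had 2556 and 3515 (0.40) and Csf1r had 2487 and 2895 (0.16). The leukocyte list had a median of 0.39, and its log2 ratios ran from 0.16 to 1.10. No marker of the remaining lists was past 1.5-fold. Their list medians were -0.06 for 7 stromal markers, -0.30 for 6 smooth muscle markers, -0.22 for 6 endothelial markers, 0.21 for 4 mesothelial markers and 0.03 for 3 oviduct and ovary markers. Among these, Dcn had 35660 and 34517 (-0.11), Acta2 had 34924 and 32886 (-0.15), Pecam1 had 9743 and 8701 (-0.22), Cdh5 had 9141 and 8175 (-0.22), Wt1 had 4151 and 3671 (-0.24), Upk3b had 633 and 699 (0.08), Ovgp1 had 2923 and 3433 (0.17) and Star had 419 and 446 (0.03).

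**Figure D5:**
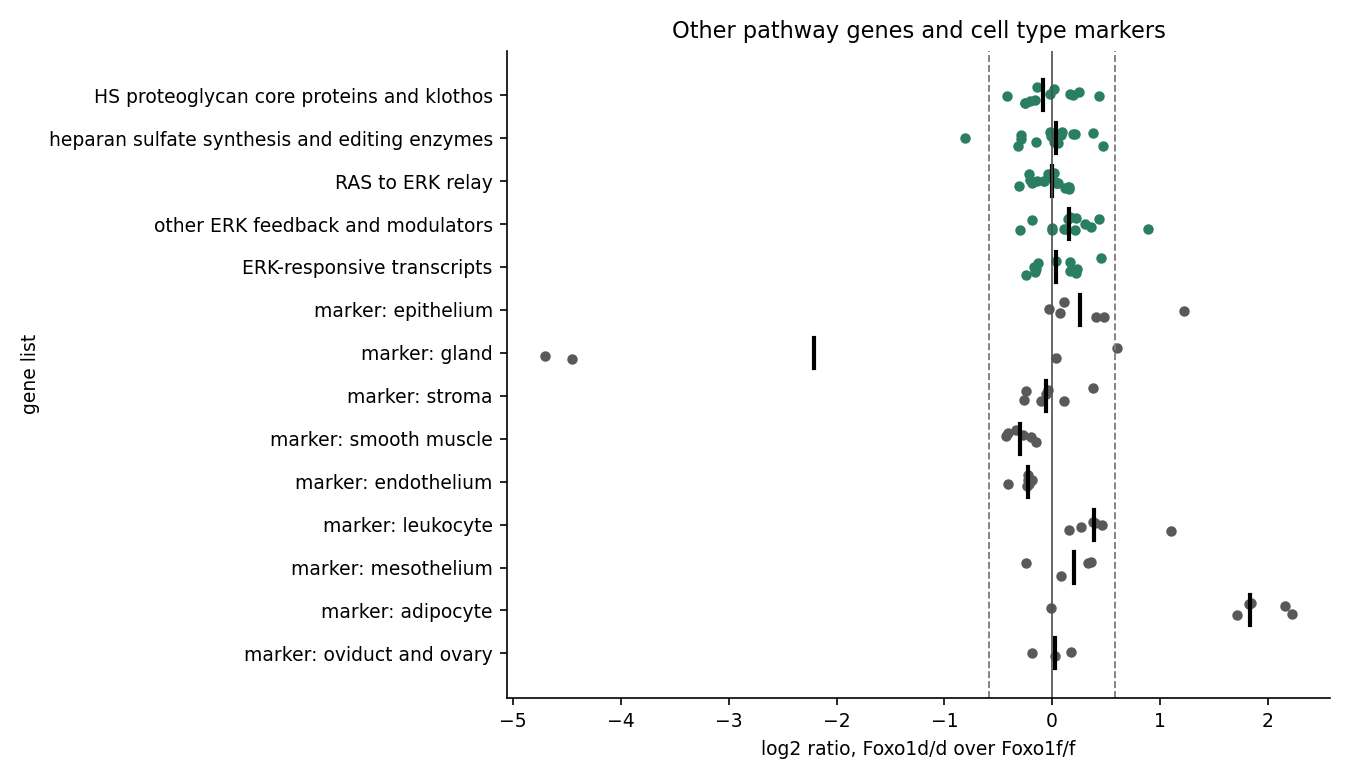
Log2 ratio, Foxo1d/d over Foxo1f/f, of each gene at the count minimum in the other pathway lists (green) and marker lists (grey), with black bars at the list medians and dashed lines at 1.5-fold. Pathway genes gather near 0, while 5 adipocyte markers, with Lep at the count minimum only through Foxo1d/d, lie at 1.71 or above and 2 gland markers lie at -4.46 and -4.71.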

How the data were processed

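RNA from uteri was sequenced in 6 libraries, 3 per genotype. The authors trimmed paired-end reads, aligned them (STAR), dropped duplicate reads (Picard) and tallied the rest over RefSeq genes (HTSeq). The authors deposited raw counts averaged over the libraries of each genotype. Tool versions were not given in the sources used here. The methods name the build mm10 and the submitters' processing notes name mm9, so coordinates printed here are those of RefSeq on GRCm38.p6 alone. The authors' columns of fold change, average log2 CPM, p-value and FDR from edgeR were not used.

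Ratios were computed in Python 3.11.15 with SciPy 1.17.1, without a pseudocount. A gene had to average 10 counts or more across the genotypes, and 1.5-fold was the threshold. Exon lengths came from the GENCODE basic annotation on GRCm38. Ratios and intervals were tested on simulated data as changes in a gene's share of the total count. The simulated counts held counting error alone, with no spread between pools, so the test says nothing about that spread. Members and lists were chosen with earlier results of these data known. All members at the count minimum are named, with the genes past the threshold and the 2 with the most counts from each other list. The values of 1 gene that this rule names are not reported here. Alternatives were other scalings, a pseudocount of 1, count minimums of 1 and 50, and a lower and a higher fold threshold.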

Additional observations from a re-analysis of the deposited data

How the results depend on the processing

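No paired analysis was possible because the table holds 1 mean per genotype and no values of single libraries, so leaving out a library could not be run either. With the ratios scaled by the median gene or by a trimmed mean, or with a pseudocount of 1, the numbers of FGF genes past 1.5-fold were 2 higher and 1 lower, as in the main values. The number higher was 4 of 31 at a count minimum of 1, beside 1510 of 17864 genes in all, and 0 of 24 at a minimum of 50, which both Fgf18 and Fgf14 miss, beside 533 of 13856. It was 1 at 2-fold. The number lower was 5 at a log2 threshold of 0.32. The median log2 ratio of the FGF genes ranged from -0.02 to 0.01 under those scalings, the pseudocount and the minimum of 1. It was -0.09 at a minimum of 50, near the lower end of a yardstick of -0.09 to 0.10. That yardstick averages the bounds of the counting intervals of the genes at the median, Spry2 and Fgfr3. Etv4 tied with Fgfr3 and was left out for its wider interval. The interval of Spry2 alone runs from -0.07 to 0.07 and does not hold -0.09. The yardstick was set after the values were seen. Of 96 values of single genes under the scalings and the pseudocount, 96 stayed inside their counting interval. The median and trimmed scalings subtract the same 0.024 or 0.025 from every log2 ratio. Each of these intervals reaches farther than that to either side, so under those scalings 96 of 96 reflects depth alone. Of 45 list medians, 3 moved outside the like yardstick of their list, all of smooth muscle or endothelial markers. Depth limits Fgf14 and Fgf18 most, with mean counts of 8.33 and 12.3 in Foxo1f/f.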

Other observations

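Of the genes nearest to Fgf9 and Fgf18 on their chromosomes in RefSeq, 3 on each side, those with counts lay within 1.5-fold, and the remaining ones had no count or no match in the table. Npm1, the gene next to Fgf18, had mean counts of 17934 and 18231 in Foxo1f/f and Foxo1d/d (log2 ratio -0.04). Farther from Fgf18, Fbxw11 had 2943 and 2947 (-0.06), Stk10 had 1054 and 1208 (0.14) and Ranbp17 had 181 and 168 (-0.17). The genes directly beside Fgf9 gave no ratio, as 1700129C05Rik had no count in either genotype and Micu2 had no match. Farther away, Zdhhc20 had 3250 and 3411 (0.01) and Rcbtb1 had 2497 and 2698 (0.05). These neighbours were looked at after the ratios of Fgf9 and Fgf18 were seen.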
